A study of Mus musculus with 72 samples.

Results

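Liver RNA of mice with C26 tumours was compared after and before the loss of body weight, in nuclei of the whole liver, with weight on genes of cells other than hepatocytes. The comparison sets 4 libraries of cachexia animals against 4 libraries of pre-cachexia animals, 8 of the 72 libraries of the series, chosen by the labelled tissue and treatment. It covers the 13738 genes that passed a filter on low counts, of 20105 in the table. The tested animals carry the treatment label C26_Cachexia and the animals they are set against the label C26_Pre-Cachexia. Whole liver nuclei of 4 animals labelled PBS_Control, from the same cohort, give the level without tumour. All 12 are BALB/c mice of the genotype CAG-Sun1/sfGFP with Albumin-Cre, called Hep-INTACT, in which Cre made in hepatocytes puts a fluorescent tag on their nuclear membrane. C26 is a colon carcinoma line of BALB/c origin that causes cachexia, a wasting of muscle and fat. Cachexia livers were taken once more than 10% of body weight had been lost, at zeitgeber time 9 h. The labels give no body weight or day for the pre-cachexia livers and no sex or age for any animal, so tumour load and time since implantation cannot be told apart from weight loss. Whole liver nuclei were not purified, and beads gave a further library of hepatocyte nuclei from each animal.

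Hepatocytes make most of the RNA of a liver, and the remaining cells line, guard and support its blood channels. Sinusoidal endothelial cells clear molecules from the blood through scavenger receptors, Kupffer cells are the resident macrophages, and stellate cells store vitamin A and make matrix. T cells, NK cells, B cells and dendritic cells patrol the sinusoids. Interferons switch on antiviral genes. The coactivator CIITA switches on the MHC class II molecules with which B cells, dendritic cells and macrophages show peptides to CD4 T cells. Glucocorticoids and cytokines of the IL6 family act on hepatocytes, where they drive gluconeogenic and acute phase genes.

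Total counts of the 8 libraries ran from 13.75 to 26.86 M, and their library numbers alternate between the groups. A share of 4.41% to 8.31% fell to 5 genes whose reads resemble rRNA. Counting covered whole gene spans, so the values are mostly unspliced nuclear RNA. The label whole liver held against its markers: those of hepatocytes, endothelial cells, Kupffer cells and stellate cells were all measured, and endothelial markers had a median of 18.8% of their whole liver level in the hepatocyte nuclei of BALB/c PBS animals. Within a group the animals differed in how near they lay to the other group. Of the 952 genes called lower in cachexia, cachexia animal 1 had the highest value of its group in 659 (69.2%), and pre-cachexia animal 3 the lowest of its group in 646 (67.9%). Of the 639 genes called higher, cachexia animal 1 had the lowest value of its group in 292 (45.7%), and pre-cachexia animals 1 and 3 the highest of theirs in 292 (45.7%) and 240 (37.6%).

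Genes of cells other than hepatocytes fell more often than they rose in cachexia, while the balance over all genes depended on the animals. Across 13738 genes, 639 (4.65%) were higher and 952 (6.93%) lower in cachexia than in pre-cachexia, called at an adjusted p under 0.05 (edgeR quasi-likelihood F test, Benjamini-Hochberg). The median log2 fold change of all tested genes was -0.03. Genes of other cells were taken from 8 BALB/c PBS animals without tumour, those of the C26 cohort and of a further cohort labelled NC26. In these animals 1587 genes were at least 4-fold lower in hepatocyte nuclei than in whole liver nuclei. Of these non-hepatocyte genes, 57 (3.59%) rose and 350 (22.05%) fell in cachexia, with a median log2 fold change of -0.31. Of the other 12151 genes 582 (4.79%) rose and 602 (4.95%) fell, with a median of -0.02. The summed CPM (counts scaled to a library of 1 M) of the 1587 genes ran from 24990 to 30150 in cachexia, from 27560 to 30430 in pre-cachexia and from 22390 to 26260 in PBS animals, so the sums of the tumour groups overlapped. In the same cachexia libraries the summed CPM of 12 hepatocyte markers was higher, at 22120 to 31740 in cachexia and 12400 to 16220 in pre-cachexia. Of the 12 markers 6 rose and 0 fell. Among the 6 were Cps1, with means of 8929 and 3189 CPM, and the acute phase gene Fgb, with 3247 and 1230 CPM. Summed CPM of endothelial markers ran from 2287 to 2591 in cachexia and from 2203 to 2365 in pre-cachexia. The part of the hepatocyte marker shift in the CPM of other cells was not tested. In whole liver nuclei, fewer cells of a type and less RNA per cell cannot be told apart. The order of the all-gene counts turned with 691 higher and 677 lower without pre-cachexia animal 1, and 598 higher and 580 lower without cachexia animal 3, and with only the 12 C26 libraries it was 703 and 707. Among non-hepatocyte genes those lower outnumbered those higher in every alternative run, but the counts moved by over 1.5 times with 1 animal fewer. Of all genes, those higher in cachexia numbered 393 without cachexia animal 4, 321 without pre-cachexia animal 2 and 390 without pre-cachexia animal 4. Those lower numbered 592 without cachexia animal 2, 580 without cachexia animal 3, 464 without cachexia animal 4 and 477 without pre-cachexia animal 2. Of the non-hepatocyte genes, those higher numbered 25 without pre-cachexia animal 2, and those lower numbered 193 without cachexia animal 2, 220 without cachexia animal 3, 173 without cachexia animal 4 and 191 without pre-cachexia animal 2.

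**Figure D1:**
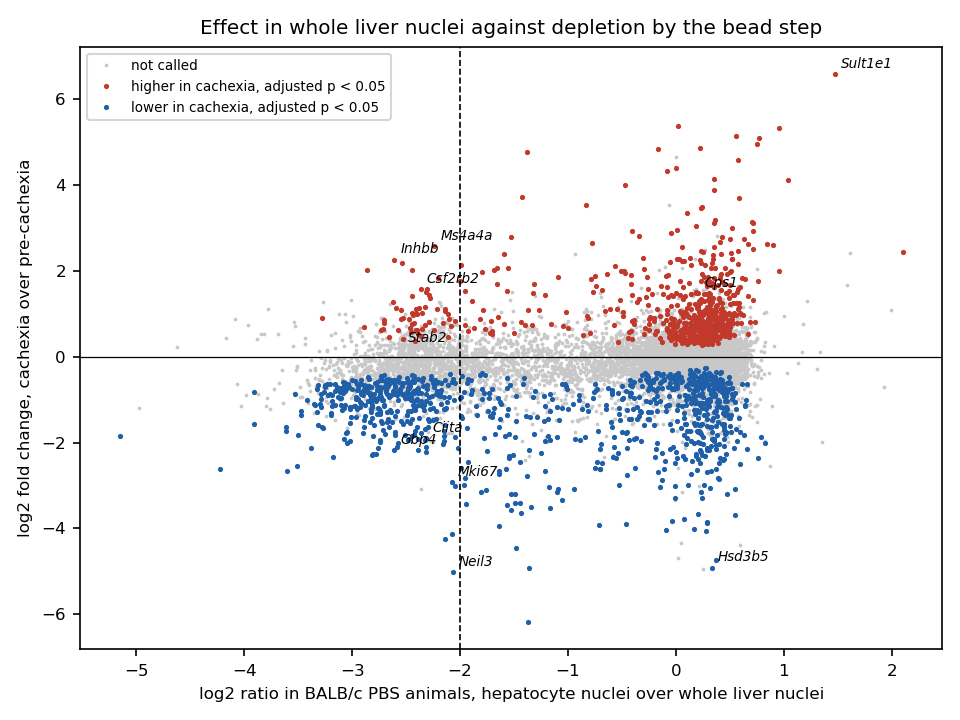
Log2 fold change of each tested gene, cachexia over pre-cachexia in whole liver nuclei, against its log2 ratio of hepatocyte over whole liver nuclei in 8 BALB/c PBS animals; the dashed line marks the 4-fold limit. Left of the line, 350 of 1587 genes were called lower (blue) and 57 higher (red).

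MHC class II antigen presentation fell as a group in cachexia. Of 13 tested genes of the list 10 fell and 0 rose, with a median log2 fold change of -1.86. H2-Ab1, the beta chain of the I-A molecule (chr17:34263227-34269418, mm10), had 5.46, 3.41, 3.79 and 2.25 CPM in the 4 cachexia livers, against 13.1, 24.6, 9.40 and 14.8 CPM in the 4 pre-cachexia livers. Every cachexia value lay below every pre-cachexia value, and the level was 4.12-fold lower (log2 fold change -2.04 ± 0.32 (SE), adjusted p = 6.58e-05). PBS livers had 4.81, 5.17, 7.26 and 7.39 CPM, which overlapped the cachexia values. Its partner chain H2-Aa had 4.79, 2.69, 3.08 and 1.55 CPM in cachexia and 9.84, 19.8, 7.15 and 11.3 CPM in pre-cachexia (log2 fold change -1.97 ± 0.31 (SE), adjusted p = 7.83e-05). H2-Eb1, the beta chain of I-E, had 5.62, 3.07, 3.55 and 2.80 CPM in cachexia and 12.3, 21.6, 8.42 and 11.6 CPM in pre-cachexia (log2 fold change -1.84 ± 0.27 (SE), adjusted p = 2.98e-05). In both chains the groups did not overlap, with the lowest pre-cachexia value in animal 3. Ciita, the coactivator that these genes depend on (chr16:10480072-10527640), moved with them, at 8.16, 5.19, 5.21 and 3.42 CPM in cachexia and 20.6, 28.2, 15.5 and 18.1 CPM in pre-cachexia (log2 fold change -1.89 ± 0.28 (SE), adjusted p = 2.91e-05). Cachexia animal 1 was again the nearest to the pre-cachexia range without reaching it. Cd83, a membrane protein of activated dendritic and B cells, fell likewise, with 1.40, 0.569, 0.887 and 0.466 CPM in cachexia and 3.84, 5.71, 2.41 and 4.31 CPM in pre-cachexia (log2 fold change -2.27 ± 0.41 (SE), adjusted p = 0.000399). The 3 tested members that were not called were H2-DMa, Ctss and Cd80, with log2 fold changes of -0.37, -0.28 and -0.27. Markers of the cells that present antigen moved too: 9 of 14 B cell, 5 of 11 dendritic cell and 5 of 20 Kupffer cell genes fell. Clec9a of the dendritic cell list rose. Summed CPM of B cell genes ran from 296 to 403 in cachexia and 299.6 to 464 in pre-cachexia. This sum holds Bach2, which was not called, with means of 151 and 114 CPM. Summed CPM of dendritic cell genes ran from 85.4 to 111 in cachexia and 79.6 to 108 in pre-cachexia. That sum holds Clec9a, with means of 58.2 and 36.2 CPM. The part of these cells in the fall of class II was not tested. With only the 8 libraries compared in the fit, 6 of 12 tested class II genes fell.

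Promoters of 3 class II genes that fell are shown to set their letters side by side (250 bases before to 50 after the start, RefSeq GRCm38.p6, the assembly of mm10). They are H2-Aa at chr17:34287774-34288073 on the minus strand, H2-Eb1 at chr17:34305617-34305916 on the plus strand and H2-DMb1, a chain of the peptide-loading molecule H2-DM, at chr17:34152941-34153240 on the plus strand, and capitals mark CCAAT on either strand.
H2-Aa: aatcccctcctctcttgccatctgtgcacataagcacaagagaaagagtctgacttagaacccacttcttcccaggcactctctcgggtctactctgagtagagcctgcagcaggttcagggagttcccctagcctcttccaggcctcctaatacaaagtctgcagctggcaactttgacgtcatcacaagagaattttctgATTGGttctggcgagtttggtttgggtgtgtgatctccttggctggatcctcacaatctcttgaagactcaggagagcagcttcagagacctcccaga
H2-Eb1: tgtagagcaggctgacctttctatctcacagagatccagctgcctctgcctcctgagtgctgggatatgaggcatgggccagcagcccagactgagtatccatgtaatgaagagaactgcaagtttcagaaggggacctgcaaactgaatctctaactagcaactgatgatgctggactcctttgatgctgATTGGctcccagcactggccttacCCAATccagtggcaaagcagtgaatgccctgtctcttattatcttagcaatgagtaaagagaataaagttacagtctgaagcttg
H2-DMb1: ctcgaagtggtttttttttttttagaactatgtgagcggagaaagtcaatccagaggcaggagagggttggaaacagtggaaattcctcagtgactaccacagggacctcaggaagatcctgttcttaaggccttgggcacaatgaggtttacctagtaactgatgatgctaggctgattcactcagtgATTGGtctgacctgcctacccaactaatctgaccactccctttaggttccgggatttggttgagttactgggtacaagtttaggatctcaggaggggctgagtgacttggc
The CCAAT letters lay at -48 to -44 in H2-Aa, at -59 to -55 and -35 to -31 in H2-Eb1 and at -61 to -57 in H2-DMb1, counted from the start. CCAAT was in the promoters of 5 of the 5 called class II genes that the table holds, of 10 called, and in 37.4% of all 32851 promoters of this length. GAAANNGAAA was in 0 of these 5 promoters. Such letters are common, and a match describes the sequence only. H2-DMb1 had 0.988, 0.114, 0.118 and 0.311 CPM in cachexia and 1.46, 2.16, 1.31 and 0.950 CPM in pre-cachexia (log2 fold change -1.95 ± 0.48 (SE), adjusted p = 0.00645), and without cachexia animal 1, the highest of its group, its log2 fold change was -3.09. H2-DMb1 lost its call (adjusted p 0.0745) in the fit of only the 8 libraries compared.

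Interferon-induced genes fell almost throughout the list. Of 24 tested members 22 fell and 0 rose, with a median log2 fold change of -1.35; Stat2 and Usp18 were not called, at -0.27 and -0.78. In 20 members every cachexia value lay below every pre-cachexia value, which held for 8.19% of all tested genes. Gbp4, a guanylate-binding GTPase, had 8.48, 4.09, 5.21 and 3.50 CPM in cachexia and 28.9, 29.9, 12.7 and 24.8 CPM in pre-cachexia (log2 fold change -2.17 ± 0.26 (SE), adjusted p = 2.26e-06). Mx1, an antiviral GTPase, had 5.36, 1.44, 2.13 and 1.40 CPM in cachexia and 13.4, 11.5, 10.3 and 13.9 CPM in pre-cachexia (log2 fold change -2.24 ± 0.37 (SE), adjusted p = 0.00014). The highest cachexia value of Gbp4 and of Mx1 was that of animal 1. Cxcl9 and Cxcl10, chemokines that draw T cells, were low throughout and lower in cachexia. Cxcl9 had 0.572, 0.265, 0.414 and 0.0777 CPM in cachexia and 1.72, 3.30, 1.27 and 2.22 CPM in pre-cachexia (log2 fold change -2.61 ± 0.43 (SE), adjusted p = 0.00014). Cxcl10, whose span overlaps that of Art3, had 0.208, 0.0379, 0.0591 and 0.0777 CPM in cachexia and 1.36, 2.24, 0.817 and 1.46 CPM in pre-cachexia (log2 fold change -3.89 ± 0.71 (SE), adjusted p = 0.000399). Tgtp2, an immunity-related GTPase, and Gbp2b were among the 8 lowest non-hepatocyte genes, with log2 fold changes of -2.13 (adjusted p = 4.45e-05) and -1.95 (adjusted p = 0.00103). Tgtp2 overlaps Olfr56 and has the close copy Tgtp1, which was not called (log2 fold change 0.03 (adjusted p = 0.984)), and how reads that match copies were counted is not given in the sources used here. Irf1, an early interferon gene, fell with overlap of the groups, at 16.3, 14.8, 15.1 and 14.2 CPM in cachexia and 25.4, 32.6, 15.3 and 27.8 CPM in pre-cachexia (log2 fold change -0.74 ± 0.23 (SE), adjusted p = 0.0347). Without cachexia animal 1 the log2 fold change was Mx1 -2.86 and Cxcl10 -4.59. The call was lost for Irf1 without cachexia animal 1, 2, 3 or 4 or pre-cachexia animal 1, 2 or 4 (adjusted p up to 0.174). Irf1 lost its call (adjusted p 0.0609) in the fit of only the 8 libraries compared.

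Promoters of 3 genes of this kind are shown with GAAANNGAAA, the core letters of interferon response elements, in capitals on either strand: Ifit3 at chr19:34583279-34583578 on the plus strand, Tgtp2 at chr11:49064163-49064462 on the minus strand and Gbp2b at chr3:142594597-142594896 on the plus strand (RefSeq GRCm38.p6).
Ifit3: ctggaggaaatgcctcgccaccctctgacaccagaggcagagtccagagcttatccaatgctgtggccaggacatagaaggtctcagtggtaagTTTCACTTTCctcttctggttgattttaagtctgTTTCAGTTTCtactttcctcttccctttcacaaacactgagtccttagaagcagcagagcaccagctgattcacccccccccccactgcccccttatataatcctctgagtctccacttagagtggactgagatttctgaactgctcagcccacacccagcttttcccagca
Tgtp2: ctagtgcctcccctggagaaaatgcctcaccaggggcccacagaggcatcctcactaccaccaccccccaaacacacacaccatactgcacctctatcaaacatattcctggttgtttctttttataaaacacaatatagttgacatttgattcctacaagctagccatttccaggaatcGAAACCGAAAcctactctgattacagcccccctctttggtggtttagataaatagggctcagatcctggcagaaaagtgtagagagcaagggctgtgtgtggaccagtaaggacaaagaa
Gbp2b: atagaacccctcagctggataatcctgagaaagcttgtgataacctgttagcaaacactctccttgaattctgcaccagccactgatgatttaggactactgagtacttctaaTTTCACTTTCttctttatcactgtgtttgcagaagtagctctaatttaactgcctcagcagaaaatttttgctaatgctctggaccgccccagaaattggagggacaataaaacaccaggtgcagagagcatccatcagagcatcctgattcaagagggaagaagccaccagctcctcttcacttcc
The letters lay at -156 to -147 and -122 to -113 in Ifit3, at -70 to -61 in Tgtp2 and at -137 to -128 in Gbp2b. GAAANNGAAA was in 11 of 18 promoters of the called interferon genes (61.1%; 16 of 22 genes matched) and in 3.44% of all promoters. Of 332 promoters of non-hepatocyte genes called lower it was in 8.43%, and of 58 promoters of those called higher in 5.17%. Ifit3, an interferon-induced antiviral protein, had 2.39, 0.531, 0.887 and 0.466 CPM in cachexia and 4.59, 3.34, 3.39 and 5.26 CPM in pre-cachexia (log2 fold change -1.93 ± 0.38 (SE), adjusted p = 0.001). Without cachexia animal 1, the highest of its group, that log2 fold change was -2.67.

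**Figure D2:**
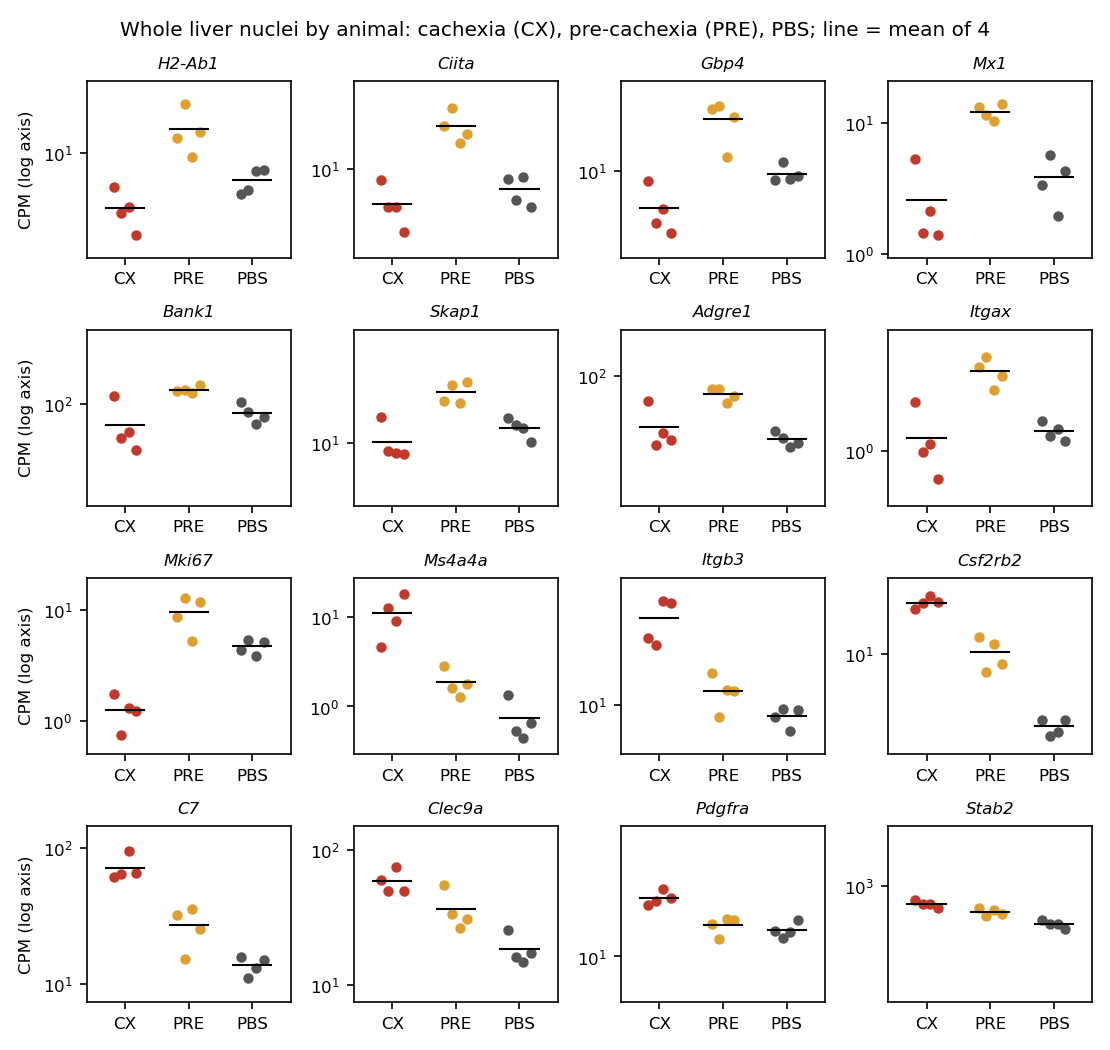
CPM of 16 genes in whole liver nuclei on log axes, a point for each animal of the cachexia (CX), pre-cachexia (PRE) and PBS groups and a line at the mean of 4. H2-Ab1, Ciita, Gbp4, Mx1 and Mki67 are lower in all cachexia animals than in all pre-cachexia animals, Ms4a4a, Itgb3, Csf2rb2 and C7 are higher, and Stab2 overlaps.

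Some lymphocyte genes of each of 3 lineages fell in cachexia. Of 15 tested T cell genes 7 fell and 0 rose (median log2 fold change -1.12), of 8 NK and innate lymphoid genes 5 fell and 0 rose (-1.19), and of 14 B cell genes 9 fell and 0 rose (-1.28), beside -0.03 for all tested genes. Skap1, an adaptor of T cell receptor signalling, had 15.6, 8.80, 8.46 and 8.32 CPM in cachexia and 20.6, 26.9, 19.9 and 28.5 CPM in pre-cachexia (log2 fold change -1.21 ± 0.21 (SE), adjusted p = 0.000224). The groups did not overlap, and cachexia animal 1 stood above the other cachexia animals. Ms4a4b, a T cell membrane protein, had 2.34, 1.18, 1.36 and 0.933 CPM in cachexia and 3.18, 6.43, 3.80 and 5.32 CPM in pre-cachexia (log2 fold change -1.67 ± 0.30 (SE), adjusted p = 0.000408). Cd4, the helper T cell coreceptor, had 0.832, 0.682, 0.710 and 0.466 CPM in cachexia and 1.77, 1.90, 2.12 and 1.71 CPM in pre-cachexia (log2 fold change -1.46 ± 0.37 (SE), adjusted p = 0.0084). All cachexia values of both genes were below all pre-cachexia values. Themis, which sets T cell receptor thresholds, varied too much within groups to be called, at 16.1, 7.43, 11.6 and 4.04 CPM in cachexia and 41.95, 25.2, 9.56 and 31.3 CPM in pre-cachexia (adjusted p = 0.0711); its level in hepatocyte nuclei was 67.3% of that in whole liver nuclei of PBS animals, so it is not a clean T cell marker here. Untested for low counts were Cd3d, Cd8a, Cd8b1, Ctla4 and Foxp3. A call was gained for Themis without cachexia animal 1 or pre-cachexia animal 3 (adjusted p as low as 0.0264). The counts of T cell, NK and B cell genes that fell were 7 of 14, 2 of 6 and 3 of 13 with only the 12 C26 libraries in the fit, and 6 of 14, 2 of 6 and 0 of 11 by edgeR with only the 8 libraries compared, where 6 B cell genes were lower at an unadjusted p under 0.05.

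Klrk1, the activating receptor NKG2D of NK and T cells, had 3.28, 1.21, 2.13 and 1.48 CPM in cachexia and 5.45, 5.24, 3.51 and 4.31 CPM in pre-cachexia (log2 fold change -1.19 ± 0.28 (SE), adjusted p = 0.00482). Txk, a kinase of T and NK cells, had 3.38, 2.62, 2.13 and 2.56 CPM in cachexia and 4.90, 5.88, 4.33 and 7.22 CPM in pre-cachexia (log2 fold change -1.05 ± 0.21 (SE), adjusted p = 0.00127), but kept 84.9% of its whole liver level in hepatocyte nuclei of PBS animals. Both genes were lower in every cachexia animal. Cxcr6, a chemokine receptor of liver-resident lymphocytes whose span overlaps Fyco1, was near the counting floor, with 0.312, 0.455, 0.0591 and 0 CPM in cachexia and 0.606, 1.31, 0.531 and 1.20 CPM in pre-cachexia (log2 fold change -1.91 ± 0.53 (SE), adjusted p = 0.0155). Bank1, a B cell scaffold, had 116, 56.8, 62.2 and 45.6 CPM in cachexia and 124, 128, 121 and 138 CPM in pre-cachexia (log2 fold change -0.87 ± 0.22 (SE), adjusted p = 0.0079). Cachexia animal 1 came close to the pre-cachexia range of Bank1, and the other 3 cachexia animals were near each other. Blk, a B cell kinase, fell by a log2 fold change of -1.80 (adjusted p = 0.00853). Bach2, the most abundant gene of the B cell list, did not follow, at 135, 214, 119.5 and 136 CPM in cachexia and 157, 120.1, 65.7 and 113 CPM in pre-cachexia (adjusted p = 0.454), and its level was as high in hepatocyte nuclei (124% of whole liver). Of 6 plasma cell genes, Prdm1, a regulator of plasma and effector T cells, was the member that fell, with overlap of the groups (log2 fold change -0.88 ± 0.29 (SE), adjusted p = 0.0403). The count of NK and innate lymphoid genes that fell was 2 without cachexia animal 3 or 4 or pre-cachexia animal 2 and 3 without cachexia animal 2 or pre-cachexia animal 1, against 5 with all animals. The count of B cell genes that fell was 2 without cachexia animal 4, 3 without cachexia animal 2 or pre-cachexia animal 4, 4 without pre-cachexia animal 2 and 5 without cachexia animal 3, against 9 with all animals. The calls lost with 1 animal fewer were those of Bank1 without cachexia animal 4 (adjusted p 0.0636), Cxcr6 without cachexia animal 3 or 4 or pre-cachexia animal 2 (adjusted p up to 0.0795) and Prdm1 without cachexia animal 2, 3 or 4 or pre-cachexia animal 1, 2 or 4 (adjusted p up to 0.163). The log2 fold change of Cxcr6 was -2.65 without cachexia animal 2. Bank1, Blk, Cxcr6 and Prdm1 lost their calls (adjusted p 0.0508 to 0.144) in the fit of only the 8 libraries compared.

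Dendritic cell genes were called in both directions. Of 11 tested members 5 fell and 1 rose (median log2 fold change -0.61). Fscn1, an actin-bundling protein of mature dendritic cells, had 0.676, 0.379, 0.532 and 0.233 CPM in cachexia, against 1.56, 2.28, 0.899 and 1.39 CPM in pre-cachexia and 1.20, 2.29, 2.19 and 1.88 CPM in PBS livers (log2 fold change -1.72 ± 0.31 (SE), adjusted p = 0.000349). It was below both other groups, with a log2 fold change over PBS of -2.01 (adjusted p = 1.22e-05). Irf8 and Batf3, transcription factors of dendritic cells, fell, with log2 fold changes of -0.61 (adjusted p = 0.00793) and -1.15 (adjusted p = 0.0123) without overlap of the groups. Clec9a, a receptor for dead cells on type 1 dendritic cells and the most abundant gene of the list, went the other way, at 59.8, 49.02, 74.6 and 49.3 CPM in cachexia, 54.3, 33.3, 26.3 and 30.9 CPM in pre-cachexia and 25.6, 16.2, 14.8 and 17.2 CPM in PBS livers (log2 fold change 0.68 ± 0.22 (SE), adjusted p = 0.0347). Pre-cachexia animal 1 lay within the cachexia range, and all 8 tumour-bearing animals were above all PBS animals. Xcr1, another marker of these cells, was not tested for low counts. Flt3l, a growth factor of dendritic cells, fell to 3.23, 2.69, 2.07 and 2.41 CPM in cachexia, against 3.74, 4.78, 4.41 and 5.26 CPM in pre-cachexia (log2 fold change -0.80 ± 0.21 (SE), adjusted p = 0.0122). The count of dendritic cell genes that fell was 2 without cachexia animal 4 or pre-cachexia animal 2 and 3 without pre-cachexia animal 1 or 4, against 5 with all animals. Calls were lost for Irf8 without pre-cachexia animal 1 (adjusted p 0.0552), Batf3 without cachexia animal 4 or pre-cachexia animal 2 (adjusted p up to 0.0615), Clec9a without cachexia animal 3 or pre-cachexia animal 2, 3 or 4 (adjusted p up to 0.123) and Flt3l without cachexia animal 3 or 4 (adjusted p up to 0.0603). Clec9a lost its call (adjusted p 0.108) in the fit of only the 8 libraries compared.

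**Figure D3:**
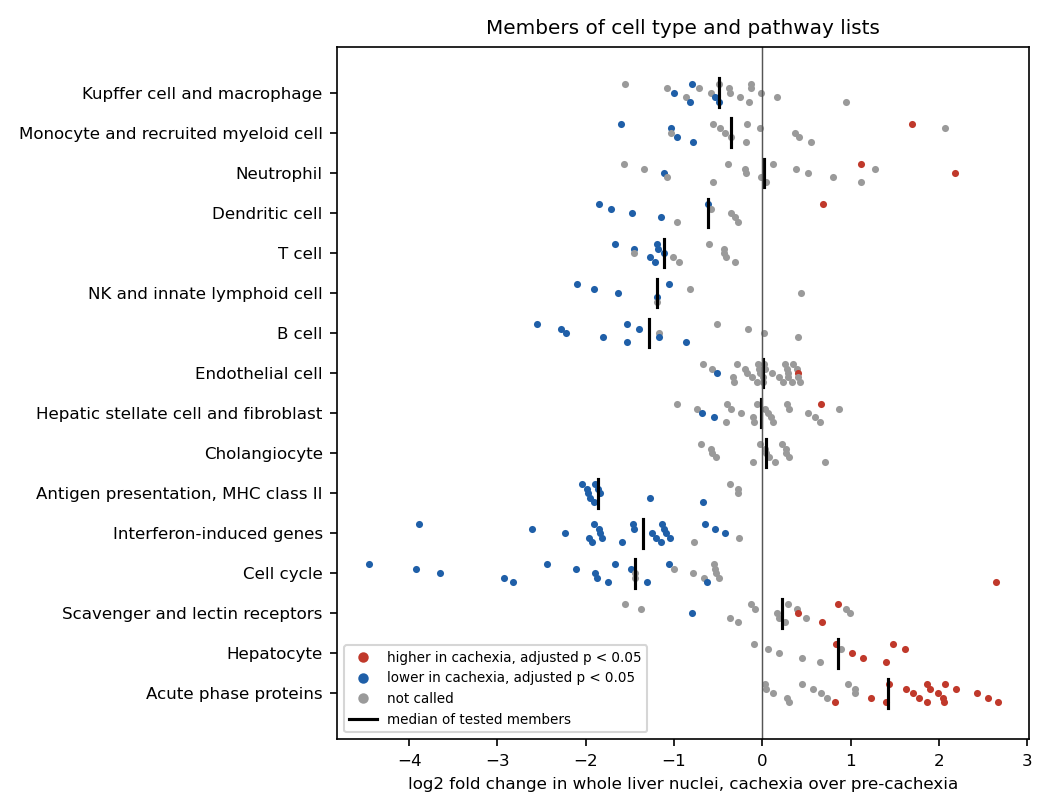
Log2 fold changes of the tested members of 16 gene lists, cachexia over pre-cachexia in whole liver nuclei, with the median of each list as a bar. All members of the class II, interferon and T cell lists lie left of 0, and so do 24 of 25 cell cycle, 12 of 14 B cell and 7 of 8 NK genes; all acute phase genes lie right of 0, and endothelial, stellate and cholangiocyte genes around 0.

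A minority of Kupffer cell and recruited myeloid genes were called lower. Of 20 tested Kupffer cell and macrophage genes 5 fell and 0 rose (median log2 fold change -0.49). Adgre1, the macrophage receptor F4/80, had 64.8, 30.6, 37.7 and 33.6 CPM in cachexia, against 79.7, 79.8, 63.4 and 70.9 CPM in pre-cachexia and 38.9, 34.8, 30.01 and 31.9 CPM in PBS livers (log2 fold change -0.82 ± 0.20 (SE), adjusted p = 0.00687). Cachexia animal 1 reached the pre-cachexia range and the other 3 lay among the PBS animals. Timd4, a phosphatidylserine receptor of resident Kupffer cells, had 33.03, 17.7, 23.2 and 17.2 CPM in cachexia and 49.2, 39.8, 34.00 and 35.1 CPM in pre-cachexia (log2 fold change -0.79 ± 0.20 (SE), adjusted p = 0.00748). Fcgr1, the high-affinity IgG receptor, had 4.53, 2.12, 3.08 and 1.79 CPM in cachexia and 6.71, 5.75, 5.43 and 5.32 CPM in pre-cachexia (log2 fold change -1.004 ± 0.24 (SE), adjusted p = 0.00636). Neither gene overlapped between the groups. Mrc1, the mannose receptor of endothelial cells and macrophages, overlapped, with 248, 205, 287 and 249 CPM in cachexia and 256, 216, 188 and 222 CPM in pre-cachexia (adjusted p = 0.58). Cd163, the haemoglobin scavenger receptor of macrophages, was above the pre-cachexia range in every cachexia animal without being called, at 90.6, 85.5, 92.8 and 105 CPM in cachexia and 63.2, 33.6, 50.5 and 46.9 CPM in pre-cachexia (log2 fold change 0.94 ± 0.34 (SE), adjusted p = 0.0675). In hepatocyte nuclei of the same animals Cd163 had a log2 fold change of 1.39 (adjusted p = 0.0186). The count of Kupffer cell and macrophage genes that fell was 2 without cachexia animal 4 and 3 without cachexia animal 2 or 3 or pre-cachexia animal 1, 2 or 4, against 5 with all animals. The call was lost for Timd4 without cachexia animal 4 (adjusted p 0.0545). A call was gained for Cd163 without pre-cachexia animal 1 (adjusted p 0.0472). Cd163 was also called higher with DESeq2 (adjusted p 0.0288). By edgeR it was called with only the 12 C26 libraries (0.0198), only the 8 libraries compared (0.0157) and a replicate block (0.0425). With only the 8 libraries compared in the fit, 1 Kupffer cell and macrophage gene fell and 1 rose. Adgre1, Timd4 and Fcgr1 lost their calls (adjusted p 0.0508 to 0.0586) in the fit of only the 8 libraries compared.

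Of 17 tested monocyte and recruited myeloid genes 4 fell (23.5%) and 1 rose (5.88%), beside 6.93% and 4.65% of all genes (median log2 fold change -0.35). Itgax, the integrin chain CD11c, had 2.29, 0.986, 1.12 and 0.622 CPM in cachexia and 4.14, 4.95, 2.82 and 3.55 CPM in pre-cachexia (log2 fold change -1.60 ± 0.29 (SE), adjusted p = 0.000375). Ccr2, the receptor with which monocytes enter tissue, had 4.84, 2.92, 3.79 and 1.48 CPM in cachexia and 7.47, 6.72, 6.13 and 5.32 CPM in pre-cachexia (log2 fold change -0.96 ± 0.28 (SE), adjusted p = 0.0207). Both were lower in all cachexia animals, and Ms4a4c followed at a log2 fold change of -1.03 (adjusted p = 0.0244). Plac8, the most abundant member, overlapped, with 13.6, 9.14, 9.11 and 9.72 CPM in cachexia and 17.8, 9.05, 12.5 and 13.7 CPM in pre-cachexia, and both were above the PBS values of 4.61, 4.48, 3.65 and 5.22 CPM. The member that rose was Gpnmb, a glycoprotein of lipid-laden macrophages, from very few reads: 0.416, 0.644, 0.532 and 0.233 CPM in cachexia and 0.101, 0.169, 0.164 and 0.127 CPM in pre-cachexia (log2 fold change 1.69 ± 0.51 (SE), adjusted p = 0.0258). Itgb2, the leukocyte integrin beta 2 chain, fell to 8.06, 6.14, 5.74 and 5.21 CPM in cachexia, against 10.5, 14.1, 9.23 and 11.5 CPM in pre-cachexia (log2 fold change -0.85 ± 0.19 (SE), adjusted p = 0.0027). Spi1, the myeloid transcription factor PU.1, had a log2 fold change of -0.64 (adjusted p = 0.0269). The count of monocyte and recruited myeloid genes that fell was 1 without cachexia animal 2 or 4 or pre-cachexia animal 1 and 2 without cachexia animal 3 or pre-cachexia animal 2, against 4 with all animals. The calls lost with 1 animal fewer were those of Ccr2 without cachexia animal 2 or 4 or pre-cachexia animal 1 or 2 (adjusted p up to 0.122), Ms4a4c without cachexia animal 2, 3 or 4 or pre-cachexia animal 1 or 4 (adjusted p up to 0.11), Gpnmb without cachexia animal 2 or 3 or pre-cachexia animal 1, 2 or 4 (adjusted p up to 0.113) and Spi1 without cachexia animal 2, 3 or 4 or pre-cachexia animal 1 or 2 (adjusted p up to 0.135). With only the 8 libraries compared in the fit, 1 of 13 tested members fell. Ccr2, Ms4a4c and Spi1 lost their calls (adjusted p 0.0525 to 0.0768) in the fit of only the 8 libraries compared.

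Among 18 tested neutrophil genes 2 rose and 1 fell (median log2 fold change 0.02). Hdc, histidine decarboxylase, which makes histamine in granulocytes and mast cells, had 4.16, 7.20, 3.79 and 11.97 CPM in cachexia and 2.93, 2.20, 4.62 and 2.53 CPM in pre-cachexia (log2 fold change 1.12 ± 0.33 (SE), adjusted p = 0.0213), with animals 2 and 4 of the cachexia group above the rest. Mmp8, neutrophil collagenase, had 0.156, 0.379, 1.06 and 0.233 CPM in cachexia and 0.151, 0.0846, 0.0817 and 0.0633 CPM in pre-cachexia (log2 fold change 2.19 ± 0.66 (SE), adjusted p = 0.0274), values of few reads. Il1b, the cytokine IL1 beta, fell to 2.50, 2.08, 1.95 and 1.55 CPM in cachexia, against 5.20, 5.54, 2.98 and 3.99 CPM in pre-cachexia (log2 fold change -1.12 ± 0.37 (SE), adjusted p = 0.0431). Csf3r, the G-CSF receptor, overlapped, with 10.5, 10.2, 8.34 and 8.09 CPM in cachexia and 9.49, 9.39, 10.1 and 7.03 CPM in pre-cachexia (adjusted p = 0.938), and all 8 values were above the PBS values of 4.36, 4.48, 5.46 and 4.22 CPM. Camp, Elane, Ltf, Ly6g, Ngp and Retnlg, genes of neutrophil granules and surface, were not tested for low counts. Calls were lost for Hdc without cachexia animal 2 or 4 or pre-cachexia animal 2 or 4 (adjusted p up to 0.164), Mmp8 without cachexia animal 3 or pre-cachexia animal 2, 3 or 4 (adjusted p up to 0.223) and Il1b without cachexia animal 1, 2, 3 or 4 or pre-cachexia animal 1, 2 or 4 (adjusted p up to 0.151). Hdc lost its call (adjusted p 0.102) in the fit of only the 8 libraries compared. The 11.1% that rose stands beside 4.65% of all genes, and the 5.56% that fell beside 6.93%. The counts ranged from 0 to 2 in either direction with 1 animal left out.

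The 57 non-hepatocyte genes that rose are 3.59% of the 1587, below the 4.65% of all genes that rose. Of the 210 genes at least 8-fold lower in hepatocyte nuclei, 1 rose and 77 fell, beside 4.65% and 6.93% of all genes. The 57 included receptors and secreted proteins known from macrophages, vessels and mesenchymal cells. Ms4a4a, a membrane protein of macrophages (chr19:11375488-11392915), had 4.68, 12.7, 8.99 and 18.4 CPM in cachexia, against 2.83, 1.61, 1.27 and 1.77 CPM in pre-cachexia and 1.33, 0.533, 0.438 and 0.645 CPM in PBS livers. The groups were apart, with a 5.97-fold higher level in cachexia (log2 fold change 2.58 ± 0.36 (SE), adjusted p = 1.55e-05). Ms4a8a, of the same family and gene cluster, had 5.36, 5.12, 9.99 and 14.5 CPM in cachexia and 2.78, 1.73, 1.72 and 2.34 CPM in pre-cachexia (log2 fold change 2.02 ± 0.36 (SE), adjusted p = 0.00037). Csf2rb2, a mouse receptor chain for IL3, had 26.8, 30.9, 35.7 and 31.4 CPM in cachexia, 14.6, 6.68, 12.6 and 7.98 CPM in pre-cachexia and 2.37, 1.65, 1.80 and 2.35 CPM in PBS livers (log2 fold change 1.57 ± 0.23 (SE), adjusted p = 2.46e-05). The 3 groups stood in that order without overlap. Its close copy Csf2rb, the shared receptor chain for GM-CSF, IL3 and IL5, overlapped, with 27.5, 20.6, 25.4 and 27.7 CPM in cachexia and 28.6, 18.2, 17.2 and 14.4 CPM in pre-cachexia (log2 fold change 0.37 ± 0.23 (SE), adjusted p = 0.361). Itgb3, the integrin beta 3 chain, had 32.4, 28.8, 62.2 and 60.4 CPM in cachexia and 17.5, 8.20, 13.2 and 12.9 CPM in pre-cachexia (log2 fold change 1.82 ± 0.29 (SE), adjusted p = 7.85e-05). Osmr, the oncostatin M receptor, had 110.2, 101, 130.1 and 116 CPM in cachexia, 65.4, 28.97, 76.1 and 36.2 CPM in pre-cachexia and 32.5, 18.99, 17.4 and 19.5 CPM in PBS livers (log2 fold change 1.14 ± 0.21 (SE), adjusted p = 0.000488). Pre-cachexia animals 2 and 4 had lower Osmr than animals 1 and 3, and all were below cachexia. C7, a terminal complement component, had 61.4, 64.98, 95.9 and 65.3 CPM in cachexia and 31.9, 15.3, 35.5 and 25.4 CPM in pre-cachexia (log2 fold change 1.41 ± 0.22 (SE), adjusted p = 7.78e-05). Clca3a1, a chloride channel regulator, had 80.6, 75.03, 112 and 108 CPM in cachexia and 47.05, 15.1, 50.3 and 26.9 CPM in pre-cachexia (log2 fold change 1.43 ± 0.28 (SE), adjusted p = 0.00108). Pre-cachexia animal 2 was the lowest of its group for C7, Clca3a1, Osmr, Itgb3 and Csf2rb2. Inhbb, the activin B chain, had 1.25, 2.01, 2.96 and 5.52 CPM in cachexia and 0.707, 0.338, 0.613 and 0.760 CPM in pre-cachexia (log2 fold change 2.26 ± 0.38 (SE), adjusted p = 0.00019).

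Endothelial markers were mostly not called, while a few receptors moved. Of 30 tested endothelial markers Clec4g rose, Dnase1l3 fell and 28 were not called, with a median log2 fold change of 0.01. Stab2, a hyaluronan scavenger receptor and the most abundant of them, had 789, 734, 744 and 687 CPM in cachexia and 694, 604, 669.6 and 622 CPM in pre-cachexia (log2 fold change 0.19 ± 0.11 (SE), adjusted p = 0.319). Flt1, a VEGF receptor, overlapped too (log2 fold change 0.43 ± 0.16 (SE), adjusted p = 0.0757). Clec4g, the sinusoidal lectin LSECtin, had 49.2, 52.4, 54.9 and 52.6 CPM in cachexia and 42.4, 36.4, 42.7 and 36.7 CPM in pre-cachexia (log2 fold change 0.40 ± 0.13 (SE), adjusted p = 0.0457). Dnase1l3, a secreted DNase, had 48.6, 37.1, 39.7 and 32.9 CPM in cachexia, against 52.7, 58.8, 57.3 and 57.3 CPM in pre-cachexia and 78.2, 69.5, 71.3 and 75.2 CPM in PBS livers (log2 fold change -0.51 ± 0.16 (SE), adjusted p = 0.0355). Each cachexia value was below each pre-cachexia value, and those below each PBS value. Of 23 tested genes of leukocyte adhesion and endothelial activation 3 rose (Thbd, Selp, Jam2) and 4 fell (Itgb2, Itgal, Cd44, Angpt2). Thbd, thrombomodulin, had 2.76, 3.75, 4.44 and 5.21 CPM in cachexia and 0.959, 1.18, 1.68 and 1.58 CPM in pre-cachexia (log2 fold change 1.57 ± 0.29 (SE), adjusted p = 0.000521). Selp, P-selectin, which catches leukocytes, had 5.93, 5.04, 10.9 and 5.13 CPM in cachexia and 4.09, 3.60, 2.33 and 2.79 CPM in pre-cachexia (log2 fold change 1.08 ± 0.28 (SE), adjusted p = 0.0113), with cachexia animal 3 far above the rest. Jam2, a junctional adhesion molecule, had a log2 fold change of 0.79 (adjusted p = 0.0188). Angpt2, a ligand that loosens vessels and whose span overlaps that of Mcph1, fell with overlap of the groups (log2 fold change -1.27 ± 0.35 (SE), adjusted p = 0.015). Of 18 scavenger and lectin receptors 3 rose (16.7%) and 1 fell (5.56%). Clec1b, the lectin CLEC-2, had 31.4, 28.3, 35.8 and 23.4 CPM in cachexia and 21.7, 16.3, 13.5 and 14.4 CPM in pre-cachexia (log2 fold change 0.85 ± 0.21 (SE), adjusted p = 0.00662). Among 24 angiocrine genes 1 rose (4.17%) and 2 fell (8.33%), near the 4.65% and 6.93% of all genes. The member that rose was Dkk3, a secreted protein of the Dickkopf family (log2 fold change 0.88 ± 0.20 (SE), adjusted p = 0.00425). With 1 animal left out, the call was lost for Clec4g without cachexia animal 2, 3 or 4 or pre-cachexia animal 2 or 4 (adjusted p up to 0.155), Dnase1l3 without cachexia animal 2, 3 or 4 or pre-cachexia animal 1, 2, 3 or 4 (adjusted p up to 0.18), Selp without cachexia animal 3 (adjusted p 0.0859), Jam2 without cachexia animal 2 or 4 or pre-cachexia animal 2 or 4 (adjusted p up to 0.109) and Angpt2 without cachexia animal 2 or 4 or pre-cachexia animal 2 or 4 (adjusted p up to 0.0918). A call was gained for Flt1 without cachexia animal 1 or 3 or pre-cachexia animal 3 (adjusted p as low as 0.0309). Flt1 was also called higher with DESeq2 (adjusted p 0.0361) and by edgeR with the size factors of DESeq2 (0.0481). The count of adhesion genes that fell was 2 without cachexia animal 2 or 4 or pre-cachexia animal 2, against 4 with all animals. The count of scavenger and lectin receptors that rose was 5 without pre-cachexia animal 1, against 3 with all animals. Selp, Jam2 and Angpt2 lost their calls (adjusted p 0.0516 to 0.079) in the fit of only the 8 libraries compared.

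Stellate cell markers had a median near 0, and a few matrix genes were called in either direction. Of 22 tested stellate cell and fibroblast genes 1 rose (4.545%) and 2 fell (9.09%), beside 4.65% and 6.93% of all genes (median log2 fold change -0.01). Pdgfra, a receptor for platelet-derived growth factor, had 23.8, 25.7, 31.4 and 26.9 CPM in cachexia and 17.5, 13.4, 18.8 and 18.6 CPM in pre-cachexia (log2 fold change 0.66 ± 0.14 (SE), adjusted p = 0.00135), without overlap. Itga8, an integrin chain of mesenchymal cells, fell with overlap, at 19.6, 17.9, 20.8 and 14.6 CPM in cachexia and 27.4, 37.2, 20.3 and 32.3 CPM in pre-cachexia (log2 fold change -0.68 ± 0.18 (SE), adjusted p = 0.00982). Of 34 tested genes of the extracellular matrix and its remodelling 3 rose (Mmp14, Adamts1, Adamts4) and 5 fell (Col3a1, Col6a3, Col14a1, Loxl1, Lama4). These are 8.82% and 14.7%, beside the same 4.65% and 6.93% of all genes. Col3a1, the chain of type III collagen, had 39.9, 29.04, 47.02 and 20.3 CPM in cachexia, against 61.9, 98.2, 63.1 and 80.2 CPM in pre-cachexia and 66.4, 62.7, 74.5 and 87.5 CPM in PBS livers (log2 fold change -1.15 ± 0.37 (SE), adjusted p = 0.0402). All cachexia values lay below both other groups. Lama4, a laminin chain, had 55.5, 39.5, 46.5 and 31.1 CPM in cachexia and 61.9, 63.2, 60.8 and 83.3 CPM in pre-cachexia (log2 fold change -0.64 ± 0.16 (SE), adjusted p = 0.0084). Mmp14, a membrane metalloproteinase, had 15.9, 20.6, 24.01 and 23.4 CPM in cachexia and 10.9, 11.2, 11.6 and 11.3 CPM in pre-cachexia (log2 fold change 0.89 ± 0.17 (SE), adjusted p = 0.000655), and its level in hepatocyte nuclei was 56.9% of that in whole liver nuclei of PBS animals. Tgfb1, the main fibrogenic cytokine, fell to 7.12, 6.79, 4.97 and 7.07 CPM in cachexia, against 9.69, 15.1, 10.2 and 11.2 CPM in pre-cachexia (log2 fold change -0.83 ± 0.17 (SE), adjusted p = 0.00117). No cholangiocyte gene of 15 tested and no mesothelial gene of 5 tested was called by edgeR, with medians of 0.04 and -0.04. Pkhd1, the fibrocystin of bile duct cilia, overlapped, with 188, 102, 145 and 56.6 CPM in cachexia and 242, 180.4, 106 and 203 CPM in pre-cachexia. The calls lost with 1 animal fewer were those of Itga8 without cachexia animal 4 or pre-cachexia animal 2 (adjusted p up to 0.0734), Col3a1 without cachexia animal 1, 2 or 4 or pre-cachexia animal 1, 2 or 4 (adjusted p up to 0.174) and Lama4 without cachexia animal 4 or pre-cachexia animal 4 (adjusted p up to 0.075). The count of matrix genes that fell was 1 without cachexia animal 2 or 4 or pre-cachexia animal 2 or 4 and 3 without pre-cachexia animal 1, against 5 with all animals. The count of matrix genes that rose was 1 without cachexia animal 2 or pre-cachexia animal 2 or 4, against 3 with all animals. Itga8 and Lama4 lost their calls (adjusted p 0.0648 to 0.0669) in the fit of only the 8 libraries compared.

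Genes of dividing cells fell. Of 25 tested cell cycle genes 15 fell and 1 rose (median log2 fold change -1.45). Mki67, a protein of dividing cells, had 1.77, 0.758, 1.30 and 1.24 CPM in cachexia, against 8.53, 12.8, 5.19 and 11.7 CPM in pre-cachexia and 4.36, 5.33, 3.85 and 5.16 CPM in PBS livers (log2 fold change -2.92 ± 0.40 (SE), adjusted p = 1.57e-05). Top2a, which untangles DNA before division, had 0.468, 0.228, 0.473 and 0.466 CPM in cachexia, 4.49, 6.77, 3.27 and 5.51 CPM in pre-cachexia and 1.08, 1.97, 1.07 and 1.88 CPM in PBS livers (log2 fold change -3.65 ± 0.42 (SE), adjusted p = 1.37e-06). For both genes the cachexia animals lay below the PBS animals and the PBS animals below or at the foot of the pre-cachexia range. Neil3, a DNA repair glycosylase of dividing cells, had the lowest log2 fold change of all non-hepatocyte genes that the rule names, at 0.104, 0.0758, 0.237 and 0 CPM in cachexia and 3.48, 5.33, 1.84 and 3.86 CPM in pre-cachexia (log2 fold change -5.01 ± 0.64 (SE), adjusted p = 4.82e-06). The member that rose was Cdkn1a, the cell cycle inhibitor p21, at 1.04, 7.66, 1.83 and 7.46 CPM in cachexia and 0.505, 1.01, 0.450 and 0.886 CPM in pre-cachexia (log2 fold change 2.65 ± 0.67 (SE), adjusted p = 0.0084), highest in cachexia animals 2 and 4. Mki67, Top2a and Cdkn1a had log2 fold changes of -3.63 (adjusted p = 0.00105), -4.37 (adjusted p = 0.000223) and 3.91 (adjusted p = 0.00641) in hepatocyte nuclei of the same animals. The count of cell cycle genes that fell was 9 without pre-cachexia animal 2, against 15 with all animals.

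Hepatocyte genes moved in both directions. Of 30 acute phase genes 18 rose and 0 fell (median log2 fold change 1.42), of 24 glucocorticoid-induced genes 16 rose and 0 fell (1.63), and of 26 genes of amino acid breakdown and urea synthesis 10 rose and 0 fell (0.53). Of 21 growth hormone dependent and sex-biased genes 3 rose and 9 fell. Serpina3n, a protease inhibitor of the acute phase, had 952, 648, 1257 and 938 CPM in cachexia and 207, 57.9, 212 and 120.0 CPM in pre-cachexia (log2 fold change 2.67 ± 0.38 (SE), adjusted p = 2.46e-05). Sult1e1, oestrogen sulfotransferase, had the highest log2 fold change of the named genes, at 2.13, 47.8, 18.5 and 108 CPM in cachexia and 0.555, 0.0423, 0.164 and 1.27 CPM in pre-cachexia (log2 fold change 6.58 ± 0.94 (SE), adjusted p = 2.91e-05), and cachexia animal 1 was far below the other 3. Ddit4, a stress- and glucocorticoid-induced inhibitor of mTORC1, had 7.28, 20.6, 8.81 and 49.4 CPM in cachexia and 1.01, 0.888, 0.940 and 1.46 CPM in pre-cachexia (log2 fold change 4.33 ± 0.52 (SE), adjusted p = 3.24e-06). Hsd3b5, a male-biased steroid dehydrogenase, fell to 18.9, 5.08, 4.91 and 3.27 CPM in cachexia, against 79.96, 232, 391 and 275 CPM in pre-cachexia (log2 fold change -4.91 ± 0.72 (SE), adjusted p = 3.72e-05). Cachexia animal 1 kept the highest value of its group. Cps1, the entry enzyme of the urea cycle, had 6752, 7378, 9273 and 12310.0 CPM in cachexia, against 4928, 2413, 2835 and 2582 CPM in pre-cachexia and 8072, 8154, 6939 and 5383 CPM in PBS livers (log2 fold change 1.49 ± 0.33 (SE), adjusted p = 0.003). Alas2, the erythroid enzyme of heme synthesis, fell to 6.29, 6.94, 4.73 and 2.72 CPM in cachexia, against 20.9, 35.3, 24.2 and 28.9 CPM in pre-cachexia and 55.4, 73.97, 61.8 and 50.5 CPM in PBS livers (log2 fold change -2.38 ± 0.27 (SE), adjusted p = 1.37e-06); it had 115% of its whole liver level in hepatocyte nuclei of PBS animals, and the globin genes were not tested for low counts. The count of glucocorticoid-induced genes that rose was 10 without pre-cachexia animal 2, against 16 with all animals. The count of genes of amino acid breakdown and urea synthesis that rose was 5 without cachexia animal 4 and 6 without pre-cachexia animal 2, against 10 with all animals. Without cachexia animal 4 the log2 fold change of Sult1e1 was 5.66 and that of Ddit4 was 3.56, without pre-cachexia animal 4 that of Sult1e1 was 7.48, and without cachexia animal 1 that of Hsd3b5 was -5.73.

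**Figure D4:**
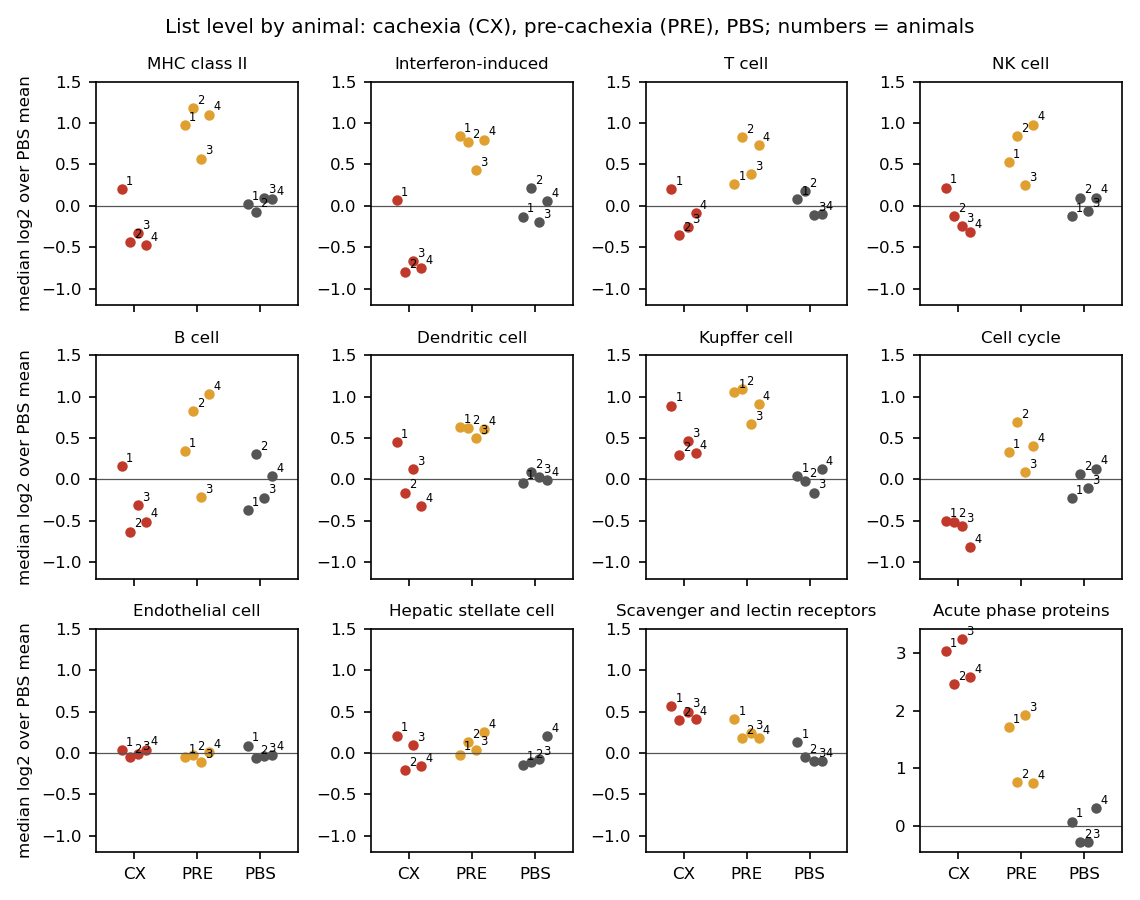
Median over the tested members of 12 lists of the log2 ratio of each animal's CPM to the PBS mean (0.5 CPM added to both), for cachexia (CX), pre-cachexia (PRE) and PBS animals, with animal numbers beside the points. The 4 cachexia animals lie below the 4 pre-cachexia animals for class II (-0.47 to 0.20 against 0.57 to 1.18), interferon (-0.80 to 0.07 against 0.43 to 0.84) and cell cycle genes, and overlap them for endothelial and stellate genes.

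Set beside PBS livers, the class II, interferon-induced, T cell and B cell lists had negative medians over PBS in cachexia and positive ones in pre-cachexia. The comparisons of both stages with PBS livers share the PBS animals, and their values stand side by side without a test between them. Over all tested genes, 11.8% were called higher and 10.2% lower in cachexia than in PBS livers, and 8.68% higher and 4.05% lower in pre-cachexia than in PBS livers. Of 13 class II genes, 1 was called higher and 1 lower than PBS in cachexia, and 8 higher and 0 lower in pre-cachexia. Of 24 interferon-induced genes, 1 was called higher and 8 lower than PBS in cachexia, and 13 higher and 0 lower in pre-cachexia. T cell genes had a median log2 fold change over PBS of -0.24 in cachexia and 0.86 in pre-cachexia, with 0 of 15 called higher and 2 lower in cachexia and 6 higher and 0 lower in pre-cachexia. B cell genes had medians of -0.49 in cachexia and 0.66 in pre-cachexia, with 0 of 14 called either way in cachexia and 1 called higher in pre-cachexia. Class II genes ran from -0.47 to 0.20 on the log2 scale over PBS in cachexia animals and from 0.57 to 1.18 in pre-cachexia animals, as medians over the list. Interferon-induced genes ran from -0.80 to 0.07 in cachexia and from 0.43 to 0.84 in pre-cachexia, so that 3 of 4 cachexia animals were below the PBS mean. Kupffer cell genes were above PBS in both stages, from 0.29 to 0.89 in cachexia and from 0.67 to 1.09 in pre-cachexia, and the ranges overlapped. Ciita and Mki67 had log2 fold changes over PBS of -0.35 (adjusted p = 0.401) and -1.89 (adjusted p = 0.000889) in cachexia, and of 1.55 (adjusted p = 0.000294) and 1.03 (adjusted p = 0.0525) in pre-cachexia. Mki67 was called below PBS in cachexia, and Ciita was not.

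The hepatocyte nuclei of the same 8 animals also showed the falls of interferon-induced and class II genes. There 636 genes (4.79%) were higher and 567 (4.27%) lower in cachexia, of 13274 tested. Of 11 class II genes tested in hepatocyte nuclei 6 fell (median log2 fold change -1.58), and of 23 interferon-induced genes 13 fell (-1.16). H2-Ab1 and Gbp4 had log2 fold changes of -2.31 (adjusted p = 0.000153) and -2.16 (adjusted p = 0.000153) there, at 22.4% and 16.4% of their whole liver level in PBS animals. T cell genes had a median of -0.52 in hepatocyte nuclei, with 2 of 12 called lower, and B cell genes a median of -0.30, with 1 of 9 called lower. Over the non-hepatocyte genes, 37 rose and 42 fell among 1262 tested in hepatocyte nuclei, with a median of -0.05. A smaller count there does not by itself show a smaller effect, since these genes have fewer reads in hepatocyte nuclei. The test of the difference between the whole liver and the hepatocyte effect called 0 of 14054 genes (edgeR, all 72 libraries), with 131 at an unadjusted p under 0.05, and DESeq2 called 0, with 158 at an unadjusted p under 0.05. With the animal as a block, which pairs both libraries of an animal, 8 genes (0.0569%) had a higher and 3 (0.0213%) a lower effect in whole liver nuclei, and 1 of these 11 was a non-hepatocyte gene. No gene of the class II, interferon or lymphocyte lists was among the 11. In hepatocyte nuclei, with 1 animal fewer, genes called higher numbered 283 without cachexia animal 4, 324 without pre-cachexia animal 2 and 420 without pre-cachexia animal 4, and genes called lower numbered 276 without cachexia animal 4 and 272 without pre-cachexia animal 2.

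**Figure D5:**
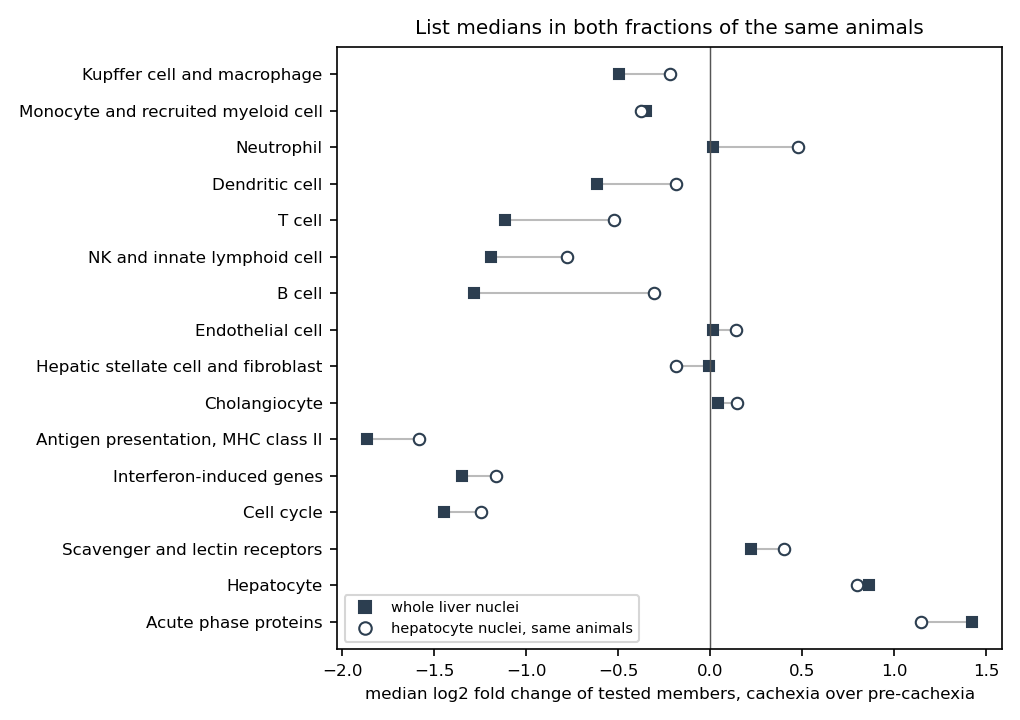
Median log2 fold change of the tested members of 16 lists, cachexia over pre-cachexia, in whole liver nuclei (filled squares) and in hepatocyte nuclei of the same animals (open circles). Class II and interferon medians are -1.86 and -1.35 in whole liver nuclei and -1.58 and -1.16 in hepatocyte nuclei, and fewer members were tested in hepatocyte nuclei (12 T cell, 9 B cell and 3 NK genes, against 15, 14 and 8 in whole liver nuclei), so medians of these lists are over different members.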

How the data were processed

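Nuclear RNA of mouse livers was sequenced. Per the labels' protocols, nuclei were put into Trizol, and stranded libraries of total RNA, not selected for poly-A, were read as paired ends. The submitters' processing notes list STAR 2.4.2a, the build mm10 and DESeq2 1.24.0, the last with no role given. The authors deposited raw counts of 20105 genes over whole gene spans, per the file headers; the use of strand in counting is not given in the sources used here, so reads of genes that overlap, antisense ones included, cannot be told apart (119 of the 1591 called genes overlap another gene span). Sequences are from RefSeq GRCm38.p6.

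Counts were analysed with R 4.3.3 and edgeR 4.0.16. The 36 whole liver libraries entered a fit of 9 groups of 4 animals with 27 residual degrees of freedom, after filterByExpr by group and TMM scaling. They include cohorts with other tumours, not all of BALB/c mice, so animals outside the comparison enter each gene's spread estimate. The quasi-likelihood F test gave each gene's p, adjusted over all genes tested. The SE was taken as the log2 fold change over the square root of F, CPM use TMM-scaled library sizes, and folds come from the fitted log2 fold change. Hepatocyte nuclei were fitted alike, and comparisons between fractions in a fit of all 72 libraries. A gene that passed the filter through the group where it is high was likely to differ, so counts over tested members are not counts over all members. On simulated counts for this comparison (13677 genes), 74% and 80% of genes changed by 1 and -1 on the log2 scale were called. Of those changed by 2 and -2, 100% and 96% were called, and there were 9 false calls. The simulated counts were drawn for each gene apart, without shifts that the genes of an animal share. False calls from such shifts were therefore not tested.

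Replicates are separate animals by their labels, and replicate libraries differed by more than counting noise (12 pairs, genes with at least 20 counts, chi-square over its degrees of freedom 37.3 to 221). The labels tie a whole liver and a hepatocyte library to the same animal, and the deviations of such pairs from their group means correlated at 0.502 to 0.829. Members and gene lists were chosen with earlier results of these data known. Named genes are the 8 highest and 8 lowest called log2 fold changes (at least 5 CPM in the higher group, no overlap), the same among non-hepatocyte genes (at least 2 CPM), the 3 smallest p and the most abundant gene of each cell type list, and the 2 smallest p of each pathway list with at least 3 called genes. Unnamed gene models were passed over, the text describes a part, and some genes of these lists are not reported here. Chosen after their values were seen were Cd163, Mx1, Ifi44, Col3a1, Selp, Jam2, Cd4, Cdkn1a, H2-DMb1, Ifit3, Csf2rb, Gpnmb, Tgtp1, Il6ra, Stat3, Cxcl14, Cxcl1 and, except for those lists' leading genes, the members listed without values. The motifs GAAANNGAAA and CCAAT were likewise chosen after values were seen. They were searched beside TTCCNGGAA, TTGCGCAA, TTGCNNAA (which holds TTGCGCAA), GGGANTTCC, CACGTG, TTATGTAA, GAGGAAGT and CCGGAAGT on both strands. Alternatives were DESeq2 1.42.0, its size factors, no filter, other sets of libraries, blocks and leaving out each animal. Precision is limited by 4 animals a group.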

Additional observations from a re-analysis of the deposited data

Results flagged for a closer look

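Among the 108 genes described, 16 of 216 groups of 4 animals (7.41%) held an animal far from the other 3, by a gap to the nearest value above the 95% critical value of Dixon's test; chance gives about 1 in 20 groups. Cachexia animal 1 was the highest of its group in 6 of them: Hsd3b5 at 18.9 CPM, Slco1a1 at 84.9 CPM, Plac8 at 13.6 CPM, Skap1 at 15.6 CPM, Prdm1 at 3.69 CPM and Ifi44 at 8.22 CPM. In all 6 genes this animal lay nearer to the pre-cachexia values than the other 3 cachexia animals did, and 5 of the 6 were called lower in cachexia. Cachexia animal 3 was the highest for C7 at 95.9 CPM, Selp at 10.9 CPM and Cxcl14 at 3.43 CPM, and the lowest for Tgfb1 at 4.97 CPM. Cachexia animal 2 was the highest for Bach2 at 214 CPM and the lowest for Top2a at 0.228 CPM. In pre-cachexia, animal 4 was the highest for Lama4 at 83.3 CPM and the lowest for Il4ra at 25.1 CPM, animal 2 the highest for Mup1 at 52.1 CPM and animal 1 the highest for Cps1 at 4928 CPM.

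With the animal as a block, the effect of cachexia over pre-cachexia differed between whole liver nuclei and hepatocyte nuclei of the same animals in 11 genes, named after their values were seen (edgeR, adjusted p from 0.0236 to 0.0489). The whole liver effect was more positive, by a log2 difference of 2.52 for Clec2h, 1.67 for Podn, 1.24 for Mup3, 0.60 for Lifr, 0.58 for Lrp4, 0.56 for Fabp1, 0.40 for Fetub and 0.40 for Rnd3. It was more negative for Slc8a1 at -1.44, for Adamts2 at -1.39 and for Samhd1 at -0.42. Without the block, 0 of these 11 genes were called.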

How the results depend on the processing

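Counts of called genes moved with the animals, with the libraries in the fit and with the limit that sets the non-hepatocyte genes. With 1 animal fewer, genes called higher and lower in cachexia numbered 321 to 735 and 464 to 1162 in whole liver, 25 to 63 and 173 to 389 among non-hepatocyte genes, 283 to 691 and 272 to 709 in hepatocyte nuclei, and 0 to 0 for the fraction difference. With only the 8 libraries compared, 547 genes were called lower in whole liver and 180 among non-hepatocyte genes, and 341 were called higher and 256 lower in hepatocyte nuclei; with only the 12 C26 libraries, hepatocyte nuclei gave 410 higher and 368 lower. The limit also sets the number of genes counted, which was 1587 at 4-fold. Of 2364 genes at least 2-fold lower in hepatocyte nuclei, 93 were called higher and 443 lower. Of 210 genes at least 8-fold lower, 1 was called higher and 77 lower. DESeq2, its size factors, no filter on low counts and leaving out the genes with rRNA-like reads kept each count within 1.5 times, and in whole liver the median log2 fold change of all genes stayed between -0.04 and 0.01 in every alternative.

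Cachexia and pre-cachexia libraries with the same replicate number in their labels correlated at -0.237 to 0.151. The animals' own identity numbers follow another order, and a pairing by them was not tested. A replicate block by number gave 528 higher and 786 lower genes in whole liver, 54 and 296 among non-hepatocyte genes, and 595 and 511 in hepatocyte nuclei. The animal block, which pairs the fractions, gave 8 and 3 genes for the fraction difference. Of 108 genes described, 0 changed direction with a call in any alternative; over 1615 gene values 138 lost and 12 gained a call, 21 of the losses with only the 8 libraries and 20 each without cachexia animal 4 or pre-cachexia animal 2. Genes under about 1 CPM rest on few reads, which limits their precision.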

Other observations

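Receptors and transcription factors of the IL6 family moved in part. Of 19 tested genes of IL6-JAK-STAT3 signalling 5 rose and 0 fell (median log2 fold change 0.21), and the 5 were Il6ra, Stat3, Osmr, Cebpd and Il4ra. Il6ra, the IL6 receptor, had 369, 481, 341 and 467 CPM in cachexia and 231, 124, 166 and 170.3 CPM in pre-cachexia (log2 fold change 1.26 ± 0.31 (SE), adjusted p = 0.00636). Stat3, which carries the IL6 signal, had 390.3, 242, 358 and 378 CPM in cachexia, 292, 178, 239.7 and 182 CPM in pre-cachexia and 113, 107, 114 and 101 CPM in PBS livers (log2 fold change 0.62 ± 0.15 (SE), adjusted p = 0.00614). Its tumour groups overlapped in 1 pair of values, cachexia animal 2 and pre-cachexia animal 1, and both were above PBS. Il4ra, the IL4 receptor chain, separated the groups at a log2 fold change of 0.66 (adjusted p = 0.00241).

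Chemokine genes were called in both directions. Of 19 tested chemokines and receptors 1 rose (5.26%) and 5 fell (26.3%), beside 4.65% and 6.93% of all genes. The 5 were Cxcl9, Cxcl10, Cxcl16, Ccr2 and Cxcr6. Cxcl14, the member that rose, had 1.35, 1.44, 3.43 and 1.55 CPM in cachexia and 0.505, 0.254, 0.940 and 0.253 CPM in pre-cachexia (log2 fold change 1.93 ± 0.53 (SE), adjusted p = 0.0149), and its call was lost without cachexia animal 3 or pre-cachexia animal 2 or 4 (adjusted p up to 0.0782). The count of chemokine genes that fell was 2 without cachexia animal 4 or pre-cachexia animal 2 and 3 without cachexia animal 2 or 3. Cxcl1, a chemokine that draws neutrophils, overlapped, with 198, 65.2, 117 and 53.2 CPM in cachexia and 124, 26.6, 112 and 29.8 CPM in pre-cachexia, and all 8 values were above the PBS values of 8.30, 8.91, 7.31 and 9.68 CPM. Of 22 tested genes of phagocyte lysosomes and lipid handling 3 rose (13.6%) and 2 fell (9.09%), beside 4.65% and 6.93% of all genes. With 1 animal left out, 1 to 3 of them rose and 0 to 4 fell. Ctsl was among the 3 that rose. Ctsl, the lysosomal protease cathepsin L, had 166, 142, 216 and 206 CPM in cachexia, 56.8, 44.8, 41.6 and 58.1 CPM in pre-cachexia and 38.8, 27.9, 40.7 and 44.2 CPM in PBS livers (log2 fold change 1.86 ± 0.23 (SE), adjusted p = 4.36e-06). Every cachexia value was above every pre-cachexia value, and hepatocyte nuclei had a log2 fold change of 2.03 (adjusted p = 1.35e-05). Slc39a14, the zinc and iron importer ZIP14, had 1265, 1066, 1221 and 1387 CPM in cachexia and 810.0, 485, 773 and 469 CPM in pre-cachexia (log2 fold change 0.96 ± 0.20 (SE), adjusted p = 0.00135).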
